A study of Mus musculus with 12 samples.

Results

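Interferon-stimulated genes were followed in mouse lens epithelial cells after a model of cataract surgery. They were chosen by name, as a list of 37 genes known to be induced by interferon. The list was drawn up with earlier results of these data known. Of the 37, 36 had a row of that name among the 24147 genes of each deposited count file, and all 36 passed the filter on low counts that left 14560 genes for testing. The exception was Ifit3b, whose locus the files list under an older symbol and which is given apart from the counts below. Zbp1, Mx1, Oasl1, Oas1a, Rsad2 and Ifi44 passed the filter through their 48 h libraries, with few reads at 0 h.

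In the surgery, performed on living mice, the fiber cell mass was taken out of the lens through an incision in the cornea, and the capsule with its attached epithelial cells stayed behind. Capsules were collected either at once (0 h) or 48 h later, from adult mice aged 2 months. Wild type (WT) mice were C57BL/6, and fibronectin conditional knockout (FNcKO) mice had a mixed C57BL/6, 129 and FVB/N background, so that the effect of genotype and that of strain background cannot be told apart. Each of the 4 groups (WT 0 h, WT 48 h, FNcKO 0 h, FNcKO 48 h) had 3 libraries, which the design text calls biological triplicates. The promoter that drives the Cre recombinase, the floxed exons and the number of capsules in a library are not stated in the labels or files used here.

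Interferons are secreted cytokines that bind cell surface receptors coupled to Janus kinases. Type I and type III interferons activate a complex that contains STAT2 and IRF9 and binds the interferon-stimulated response element (ISRE) in target promoters, whereas the response to type II interferon acts through the gamma-activated sequence (GAS). The target genes encode sensors of foreign nucleic acid, antiviral effectors and parts of the pathway itself, and some are also induced without interferon, by IRF1, IRF3 or IRF7. The lens is normally free of blood vessels and leukocytes.

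Promoter sequence was available for 28 of the 37 genes in a RefSeq table on GRCm38.p6, the patch release of the mm10 build that the files use. Each window ran from 250 bases before to 50 bases after an annotated start, and 4 genes had more than 1 window. The core of the ISRE was searched as GAAANNGAAA on both strands, counting overlapping matches separately. It was found in 14 of the 28 genes (50.0%, exact 95% binomial interval 30.6% to 69.4%), against 3.99% of all 27025 genes in the table. The interval treats the genes as independent random draws, which they are not. The list was chosen by name, and Ifit3 and Ifit3b share the matched stretch. With only the bases before the start searched, 11 genes held it, against 3.46% of all genes. The GAS core, searched as TTCNNNGAA, whose letters read alike on both strands, was found in 6 of the 28 genes (21.4%) against 9.55% of all genes. Letter matches describe the sequence and do not show a bound site, and an absence covers only these letters in this window.

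The 11 genes with a match before the start are printed with the match in capitals and up to 25 bases on either side, read 5′ to 3′ along the strand of the gene, to show that the same short core recurs in different surroundings. In some the core reads forward and in others as its reverse complement. A run of 3 overlapping matches lies in front of Isg15 (chr4:156200850-156200921, minus strand), and pairs lie in front of Ifit1 (chr19:34640760-34640838, plus strand), Bst2 (chr8:71537562-71537627, minus strand), Oas1a (chr5:120907526-120907570, minus strand) and Gbp3 (chr3:142559974-142560039, plus strand).
Isg15: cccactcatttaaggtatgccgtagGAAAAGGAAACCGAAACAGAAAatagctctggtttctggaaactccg
Ifit1: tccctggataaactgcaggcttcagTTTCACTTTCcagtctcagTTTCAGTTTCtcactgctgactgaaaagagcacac
Bst2: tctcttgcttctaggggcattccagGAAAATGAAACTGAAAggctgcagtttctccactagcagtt
Oas1a: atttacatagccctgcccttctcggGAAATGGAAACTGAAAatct
Gbp3: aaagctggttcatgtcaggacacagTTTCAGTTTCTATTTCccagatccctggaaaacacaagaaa

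Single matches were found for Gbp2 (chr3:142620579-142620638, plus strand), Oas3 (chr5:120777700-120777759, minus strand), Stat2 (chr10:128270251-128270310, plus strand) and Rsad2 (chr12:26456538-26456597, minus strand).
Gbp2: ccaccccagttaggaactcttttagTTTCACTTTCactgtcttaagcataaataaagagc
Oas3: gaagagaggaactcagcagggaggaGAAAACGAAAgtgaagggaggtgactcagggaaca
Stat2: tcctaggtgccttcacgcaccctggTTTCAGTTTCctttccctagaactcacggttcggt
Rsad2: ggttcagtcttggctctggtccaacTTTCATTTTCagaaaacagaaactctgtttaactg

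Ifit3 (chr19:34583348-34583441, plus strand) and Ifit3b (chr19:34607744-34607837, plus strand) carry the same 94 bases, letter for letter. The pair are near-identical gene copies.
Ifit3: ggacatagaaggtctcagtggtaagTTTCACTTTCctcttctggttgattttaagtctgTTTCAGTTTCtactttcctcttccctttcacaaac
Ifit3b: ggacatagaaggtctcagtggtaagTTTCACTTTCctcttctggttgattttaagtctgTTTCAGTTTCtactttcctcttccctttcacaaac

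In Ifih1, Ddx58 and Eif2ak2 the match lay after the start. Among the genes tested, 10 of the 13 with the ISRE core rose in WT and 12 in FNcKO, with median log2 fold changes of 2.11 and 2.03. Of the 14 with a window but without the core, 10 rose in WT and 12 in FNcKO, with medians of 1.20 and 1.34. Irf7, Oasl2 and Ifi44, which rose strongly (below), had no match in their windows.

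Library totals ran from 8368160 to 10862573 counts. Levels are given as counts per 1e6 after scaling of the libraries by the trimmed mean of M values (CPM), always in the order of replicates 1, 2 and 3. A count of 0 allows up to 3 counts, which across the libraries is 0.285 to 0.430 CPM and covers counting error only. Differences were tested with edgeR's quasi-likelihood F test, and "rose" or "fell" is written only where the Benjamini-Hochberg (BH) adjusted p over all 14560 genes was under 0.05. Fn1, the gene targeted in FNcKO, stood at 15.5 to 23.0 CPM in WT and 8.31 to 16.8 CPM in FNcKO at 0 h, and at 527 to 1514 CPM in WT and 146 to 687 CPM in FNcKO at 48 h. The genotypes overlapped at both times, and a count over the whole gene does not check a deletion of part of it. The 9 lens epithelial markers summed to 1661 to 2450.2 CPM in WT at 0 h and 751 to 999.9 CPM at 48 h, and to 2509 to 2726 and 714 to 1426 CPM in FNcKO. Of these, 4 fell in each genotype, Npnt, Fgfr3 and Cdh1 in both, Pdgfra in WT and Pax6 in FNcKO, and 1, Epha2, rose in both. Pax6, a lens transcription factor, had group means of 355 to 514 CPM.

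The interferon-stimulated genes rose as a group after surgery in both genotypes. In WT, 29 of 36 were higher at 48 h than at 0 h (80.6%) and 0 were lower, while 19.1% of all tested genes were higher and 13.5% lower. In FNcKO, 31 of 36 were higher (86.1%) and 0 lower, against 14.9% higher and 9.9% lower of all tested genes. Because the list was chosen with earlier results of these data known, these shares describe it and are not an independent test. Zbp1, Mx1, Oasl1, Oas1a, Rsad2 and Ifi44 also passed the filter through their 48 h libraries, so their rise is partly set by it. The median log2 fold change of the 36 genes was 1.55 in WT and 1.94 in FNcKO, and that of all tested genes 0.02 and 0.00. At an unadjusted p under 0.05 the counts were 34 and 33 genes, all higher, against 24.1% and 20.5% of all tested genes higher and 19.4% and 16.7% lower, and DESeq2 called 30 and 31 higher and 0 lower.

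Of the genes that rose, 16 in WT and 15 in FNcKO changed at least 4-fold, and 11 and 12 between 2-fold and 4-fold. The share of all tested genes at these folds was not determined, so these counts describe the list only. Those at 4-fold include the genes named above that passed the filter through their 48 h libraries. All 3 libraries at 48 h lay above all 3 at 0 h for 32 genes in WT and 33 in FNcKO, against 27.5% and 20.1% of all tested genes. Calls that held in each of the 22 alternative settings numbered 23 in WT and 22 in FNcKO. With libraries scaled to total counts alone, the median log2 fold change of all genes moved to 0.23 in WT and 0.29 in FNcKO, and the share of higher genes among all calls moved from 58.5% to 76.2% and from 60.1% to 82.4%. The medians of the 36 genes were then 1.76 and 2.22, with 36 and 35 of 36 above 0.

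**Figure D1:**
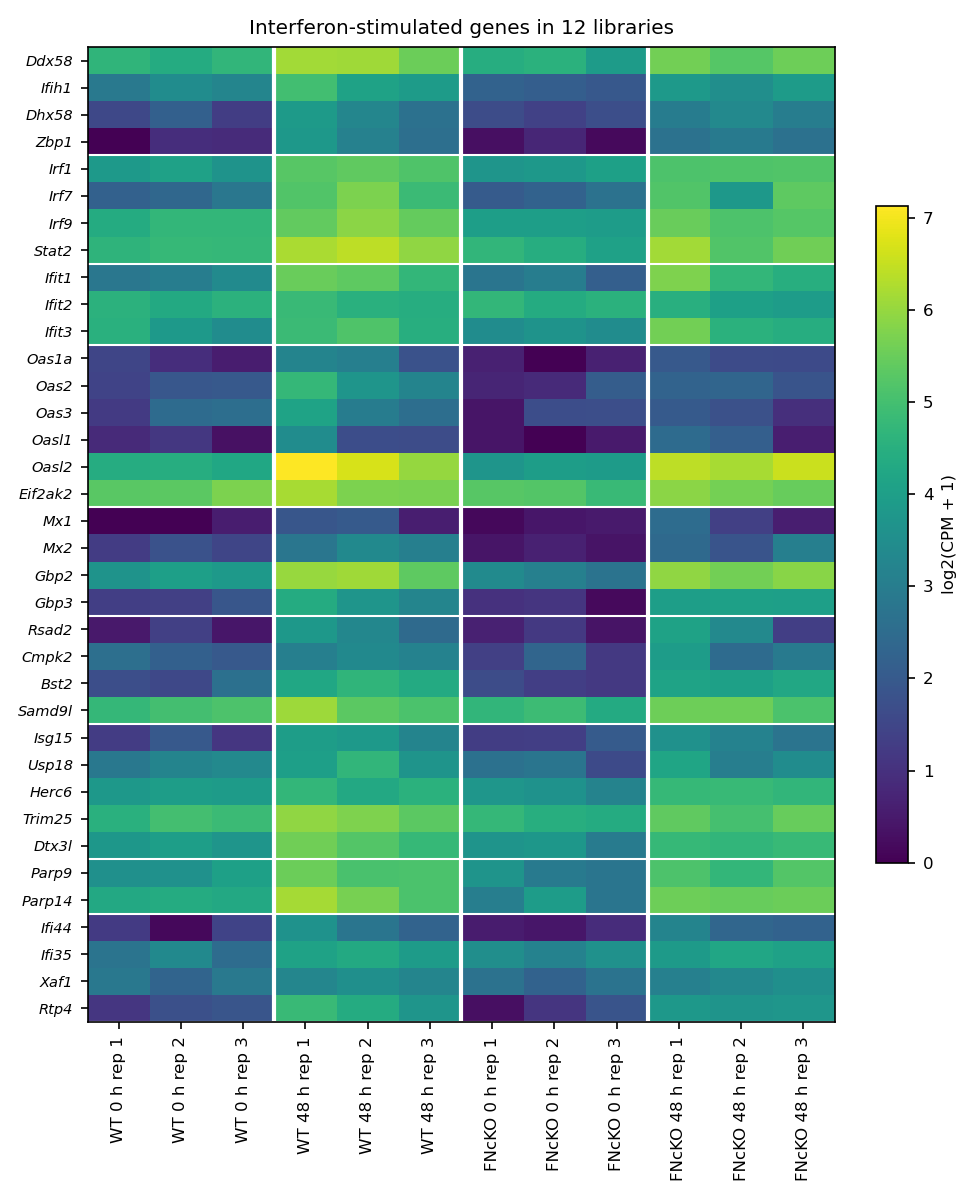
Level of each of the 36 interferon-stimulated genes (rows, grouped by role) in the 12 libraries (columns), as log2(CPM + 1) on the colour scale. The 48 h columns are brighter than the 0 h columns in nearly every row, Ifit2 and Eif2ak2 change least, and WT 48 h replicate 3 is dimmer than the other WT 48 h libraries.

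The summed level of the 36 genes was 357, 391 and 400 CPM in WT at 0 h and 1226, 1076 and 768 CPM at 48 h. In FNcKO it was 307, 304 and 256 CPM at 0 h and 960, 730 and 806 CPM at 48 h. Every 48 h sum lay above every 0 h sum. WT 48 h replicate 3 had the lowest value of its group in 30 of the 36 genes and the highest in 0.

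Leukocyte markers moved with the same comparison. The 6 general leukocyte markers (Ptprc, Coro1a, Laptm5, Cd52, Lcp1, Cd53) summed to 16.7, 29.4 and 43.2 CPM in WT at 0 h and to 506, 229 and 154 CPM at 48 h, and 6 of 6 rose. In FNcKO they summed to 10.8, 25.1 and 23.2 CPM at 0 h and to 87.3, 150 and 244 CPM at 48 h, and 5 of 6 rose. Within the WT 48 h group the order of the libraries was the same as for the interferon-stimulated genes, whereas within FNcKO 48 h replicate 1 had the lowest leukocyte sum and the highest interferon-stimulated sum.

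Beside the counts in these marker lists, 19.1% of all tested genes rose and 13.5% fell in WT, and 14.9% and 9.9% in FNcKO. Of 15 macrophage and monocyte markers, 7 rose in each genotype, and 1, Cx3cr1, fell in FNcKO. Their sum was 72.8 to 176 CPM in WT at 0 h and 264 to 695 CPM at 48 h, and 56.7 to 124 CPM and 139 to 353 CPM in FNcKO. Of 10 neutrophil markers with a row, 6 were tested, and 6 rose in WT and 5 in FNcKO, with sums up to 351 and 120 CPM. The 11 lymphocyte and natural killer cell markers summed to at most 3.33 CPM and the 4 plasmacytoid dendritic cell markers to at most 3.73 CPM in any library. Among the lymphocyte markers, Cd3e was at 0 in every 0 h library, whereas Cd3d, Cd8a and Cd4 had counts in each of them. Of 9 endothelial markers tested, 5 rose in each genotype (Pecam1, Cdh5, Tie1, Emcn and Eng), Egfl7 fell in FNcKO, and the sum of the 10 markers listed was 33.0 to 55.2 CPM at 0 h and 59.3 to 129 CPM at 48 h in WT, and 26.03 to 37.5 and 35.4 to 73.5 CPM in FNcKO. Of 10 lens fiber markers, 6 fell in each genotype, with sums of 32772 to 59016 CPM at 0 h and 2974 to 15983 CPM at 48 h in WT, and 42432 to 90878 and 1959 to 29051 CPM in FNcKO. The part of these cells in the rise was not tested, and in whole capsules a change in the number of cells of a type and a change in RNA per cell cannot be told apart.

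**Figure D2:**
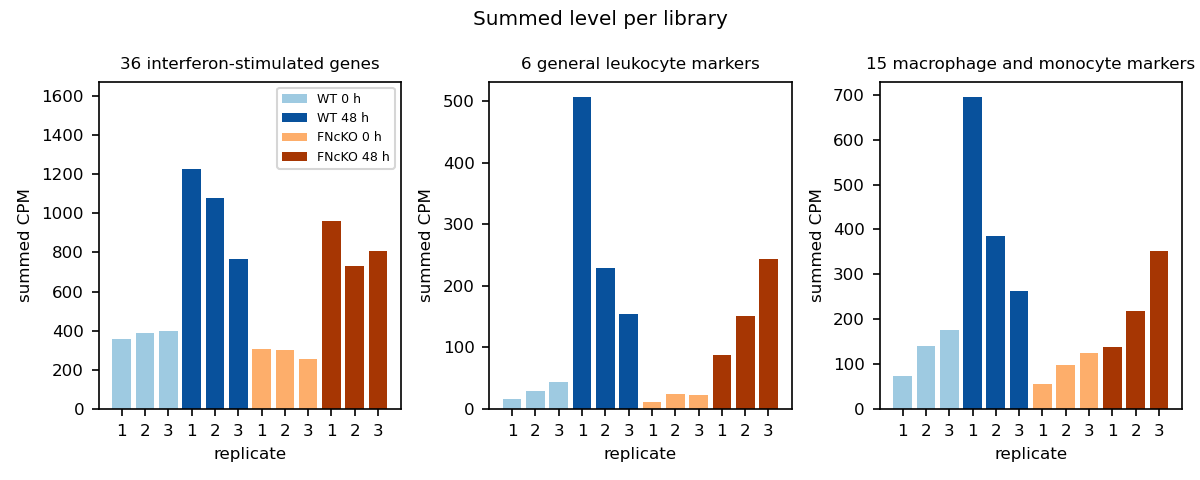
Summed CPM in each of the 12 libraries (bars, by replicate within group) for the 36 interferon-stimulated genes, 6 general leukocyte markers and 15 macrophage and monocyte markers, each axis starting at 0. All 3 sums are higher at 48 h, and the order of the FNcKO 48 h libraries differs between the first panel (960, 730, 806 CPM) and the second (87.3, 150, 244 CPM).

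Compared between genes on the authors' deposited RPKM scale, which divides by coding length and library total, the order changed with time. At 0 h in WT the highest means were those of Eif2ak2 (9.62 ± 1.57, SD, n = 3), Irf9 (8.51 ± 1.49) and Ifit3 (7.31 ± 2.71), and the lowest that of Mx1 (0.0513 ± 0.0889). At 48 h in WT the highest were Oasl2 (36.7 ± 14.7), Bst2 (30.2 ± 4.63), Gbp2 (26.6 ± 7.47) and Irf7 (23.3 ± 7.45), and neighbours in this order differed by less than the larger of their SDs. In FNcKO the same 4 genes led at 48 h, with 28.4 ± 5.09 for Oasl2, 23.9 ± 3.44 for Gbp2, 23.3 ± 3.31 for Bst2 and 17.1 ± 8.96 for Irf7. Eif2ak2 also led in FNcKO at 0 h (6.87 ± 1.77), followed by Ifi35 (6.27 ± 0.819).

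The sensors of foreign nucleic acid rose in both genotypes, 4 of 4. Ddx58 encodes RIG-I, a receptor for viral RNA in the cytoplasm. It stood at 24.2, 19.9 and 24.6 CPM in WT at 0 h and 69.4, 67.7 and 45.2 CPM at 48 h, and at 20.8, 22.6 and 13.9 and then 48.1, 36.7 and 46.0 CPM in FNcKO. The groups did not overlap over time in either genotype, and the log2 fold changes were 1.41 ± 0.22 (SE) and 1.19 ± 0.22. Ifih1 encodes MDA5, which senses long double-stranded RNA. Its levels were 6.41, 10.1 and 8.55 CPM and then 30.0, 16.1 and 14.1 CPM in WT, and 3.69, 3.34 and 2.87 CPM and then 13.5, 10.5 and 14.2 CPM in FNcKO. It rose 2.41-fold in WT and 3.83-fold in FNcKO.

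Zbp1, a sensor of Z-form nucleic acid that can trigger cell death, had the largest estimated rise of all 36 genes in WT. The log2 values of Mx1 (3.72 ± 1.18) and Rsad2 (3.48 ± 0.84) lay within the SE of Zbp1, so this rank is not resolved. Zbp1 was at 0, 0.917 and 0.843 CPM in WT at 0 h and 13.03, 7.77 and 5.08 CPM at 48 h. In FNcKO it went from 0.223, 0.692 and 0.143 CPM to 5.38, 6.66 and 5.28 CPM. The 0 h libraries held 16 reads in all in WT and 9 in FNcKO, and the log2 fold changes were 3.87 ± 0.72 in WT (edgeR, BH-adjusted p = 0.00144) and 3.95 ± 0.77 in FNcKO (edgeR, BH-adjusted p = 0.00266). Leaving out WT 0 h replicate 1 gave 3.28, and leaving out FNcKO 0 h replicate 2 gave 4.85. Dhx58, which encodes the RIG-I relative LGP2, rose 3.96-fold and 3.84-fold from means of 2.31 and 2.01 CPM.

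The transcription factors rose likewise, 4 of 4 in each genotype. Stat2, a subunit of the factor that type I interferon activates, stood at 23.8, 26.5 and 25.9 CPM in WT at 0 h and 73.8, 84.8 and 60.2 CPM at 48 h. In FNcKO it stood at 24.7, 20.8 and 15.9 CPM and then at 70.0, 35.8 and 46.7 CPM. Its log2 fold changes were 1.52 ± 0.24 and 1.31 ± 0.24. Irf9, the DNA-binding subunit of the same factor, was at 20.05, 25.1 and 25.3 CPM and then 41.9, 58.0 and 42.8 CPM in WT, and at 14.97, 14.9 and 14.3 CPM and then 44.4, 33.9 and 37.2 CPM in FNcKO. It rose 2.03-fold and 2.61-fold, with no overlap between the times.

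Irf7, which amplifies the transcription of interferon genes, rose 8.32-fold in WT, from a mean of 4.64 to 38.5 CPM, and 7.27-fold in FNcKO, from 4.09 to 29.5 CPM. Its FNcKO 48 h libraries were at 35.5, 12.99 and 40.1 CPM, with replicate 2 apart from the others. Irf1, which type II interferon and inflammatory signals induce, rose 2.74-fold and 2.57-fold, and its 48 h libraries lay within 34.1 to 40.7 CPM in all 6 libraries.

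The Ifit family, whose proteins bind viral RNA, was split. Ifit2 passed the test in neither genotype. It stood at 23.1, 19.2 and 23.0 CPM in WT at 0 h and 27.3, 22.0 and 20.7 CPM at 48 h, and at 25.2, 19.7 and 22.5 CPM and then 21.7, 15.6 and 14.5 CPM in FNcKO. The groups overlapped, and the log2 fold changes were 0.10 ± 0.20 (edgeR, BH-adjusted p = 0.720) and -0.38 ± 0.21 (edgeR, BH-adjusted p = 0.199). Its neighbour Ifit1 rose 4.77-fold in WT, from a mean of 7.63 to 36.3 CPM, and 6.03-fold in FNcKO, from 5.43 to 33.0 CPM, with no overlap between the times.

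Ifit3 lies between Ifit2 and Ifit1. Its levels were 22.2, 13.2 and 10.1 CPM and then 27.8, 34.9 and 21.1 CPM in WT, and 9.94, 11.6 and 10.03 CPM and then 48.0, 22.4 and 20.8 CPM in FNcKO. It rose in FNcKO (log2 1.53 ± 0.36), while in WT the 0 h library of replicate 1 overlapped the 48 h libraries and the gene missed the threshold (0.88 ± 0.35, edgeR, BH-adjusted p = 0.0685). Without WT 0 h replicate 1 the WT value was 1.26 (edgeR, BH-adjusted p = 0.0252). The row under the older symbol of Ifit3b (I830012O16Rik) held 9.23 ± 1.46 CPM (SD, n = 3) at 0 h and 11.1 ± 2.90 CPM at 48 h in WT, and 4.85 ± 1.14 and 10.3 ± 5.81 CPM in FNcKO, and passed no test over time (edgeR, BH-adjusted p = 0.633 and 0.0730). How reads that match both copies were counted is not stated in the labels or files used here, so the single values of Ifit3 and Ifit3b are uncertain.

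The Oas family makes or resembles the enzymes that activate RNase L on double-stranded RNA, and Eif2ak2 encodes PKR, a kinase that halts translation. Oasl2, an Oas-like protein, had the highest RPKM of the list at 48 h. It stood at 20.3, 20.5 and 17.8 CPM in WT at 0 h and 139, 103 and 62.9 CPM at 48 h, and at 12.1, 14.6 and 14.04 CPM and then 85.0, 72.8 and 93.5 CPM in FNcKO. It rose 5.19-fold and 6.16-fold, with no overlap. Eif2ak2, which had the highest RPKM at 0 h, differed less between the times, with 38.4, 39.1 and 51.3 CPM and then 72.2, 52.0 and 50.5 CPM in WT, and 37.4, 35.98 and 27.7 CPM and then 57.6, 48.9 and 43.6 CPM in FNcKO. It rose 1.48-fold in FNcKO and missed the threshold in WT (1.36-fold, edgeR, BH-adjusted p = 0.0986). The FNcKO call was lost in 17 of the 22 alternative settings, with log2 values from 0.41 to 0.83.

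Oas2, an enzyme of this family, stood at 1.70, 2.85 and 3.01 CPM in WT at 0 h and 25.7, 12.1 and 8.29 CPM at 48 h, and rose 6.09-fold. In FNcKO it stood at 0.670, 0.807 and 3.30 CPM at 0 h and 3.80, 4.04 and 2.64 CPM at 48 h, where the groups overlapped and the gene missed the threshold (log2 1.17 ± 0.59, edgeR, BH-adjusted p = 0.165). Without FNcKO 0 h replicate 3, the highest of its group, the FNcKO value was 2.18 (edgeR, BH-adjusted p = 0.0199), and without WT 48 h replicate 1 the WT value was 2.02.

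Oas3, the gene next to Oas2, passed in neither genotype. Its WT libraries were at 1.30, 4.59 and 4.94 CPM and then at 16.5, 6.99 and 4.98 CPM, and the fold change was 2.64 (edgeR, BH-adjusted p = 0.123), with a log2 value of 0.74 without WT 48 h replicate 1. In FNcKO, 0.335, 2.19 and 2.29 CPM were followed by 3.06, 2.40 and 0.951 CPM, a log2 fold change of 0.43 ± 0.73.

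Oas1a and Oasl1 were low and rose in both genotypes, Oas1a from a mean of 1.07 to 6.11 CPM in WT and from 0.377 to 2.35 CPM in FNcKO, and Oasl1 from 0.755 to 4.80 CPM and from 0.255 to 2.89 CPM. These calls rested on few reads. That of Oas1a was lost in 3 alternatives in WT and 6 in FNcKO, and that of Oasl1 in 7 and 7. Oasl1 fell below the threshold without any 1 of the 3 WT 0 h libraries, or without WT 48 h replicate 1 (log2 1.51 against 2.63), and in FNcKO without any 1 of the 3 0 h libraries or 48 h replicates 1 or 2, with values of 2.89 to 3.95 against 3.48. Oas1a fell below it without WT 0 h replicate 2 (2.36) or replicate 3 (2.16) or WT 48 h replicate 1 (2.20) against 2.49, and in FNcKO without 0 h replicate 1 (3.08) or 2 (2.03) or 48 h replicate 1 (2.42) or 3 (2.72) against 2.62. Without WT 0 h replicate 1 the WT value of Oas1a was 3.09, and the call held.

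**Figure D3:**
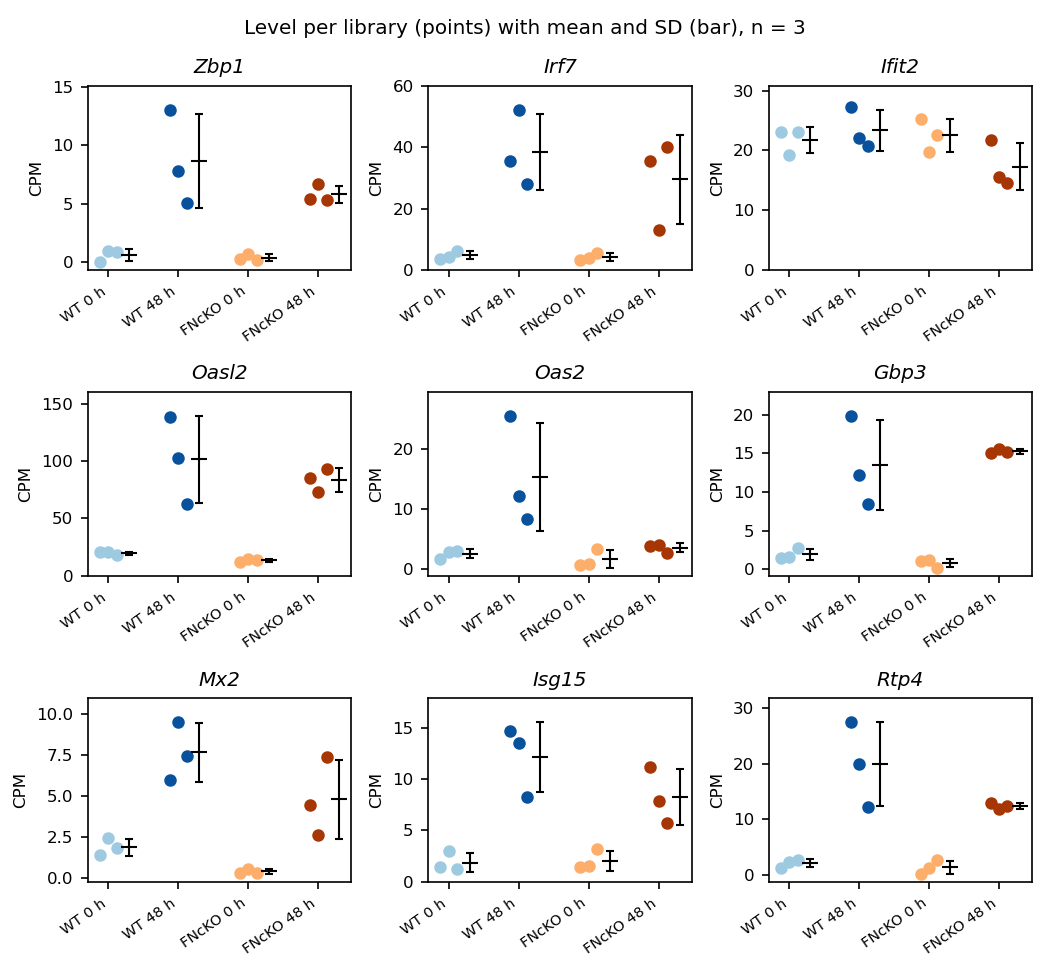
CPM of 9 interferon-stimulated genes in each library (points) by group, with the group mean and SD (black, n = 3), each axis starting at or just below 0. Ifit2 stays between 14.5 and 27.3 CPM in all 12 libraries, Gbp3 in FNcKO 48 h lies between 14.99 and 15.6 CPM, and Oas2 in FNcKO 48 h stays at or below 4.04 CPM while WT 48 h reaches 25.7 CPM.

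Guanylate-binding proteins and Mx proteins are GTPases that restrict intracellular pathogens. Gbp3 had the largest estimated rise of the list in FNcKO, a rank not resolved from that of Zbp1 (log2 3.95 ± 0.77). Gbp3 stood at 1.503, 1.53 and 2.77 CPM in WT at 0 h and 19.9, 12.1 and 8.40 CPM at 48 h. In FNcKO it stood at 1.01, 1.15 and 0.143 CPM and then 14.99, 15.6 and 15.2 CPM. The log2 fold changes were 2.81 ± 0.45 in WT and 4.24 ± 0.51 in FNcKO (edgeR, BH-adjusted p = 1.22e-04). Gbp2, its neighbour, had 11.5, 15.3 and 13.5 CPM and then 64.8, 68.7 and 40.3 CPM in WT, and 9.72, 7.61 and 5.59 CPM and then 60.9, 48.2 and 56.8 CPM in FNcKO. It rose 4.31-fold and 7.19-fold.

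Mx1, which is truncated in common laboratory mouse strains, and Mx2 lie side by side. Mx1 was close to the limit of detection, at 0, 0 and 0.481 CPM in WT at 0 h and 2.76, 3.01 and 0.518 CPM at 48 h, and at 0.112, 0.346 and 0.430 CPM and then 4.75, 1.53 and 0.528 CPM in FNcKO. It passed in WT (log2 3.72 ± 1.18, edgeR, BH-adjusted p = 0.0280) and missed the threshold in FNcKO (2.92 ± 1.10, edgeR, BH-adjusted p = 0.0678). The WT 0 h group held 4 counts in all, in replicate 3. Without that library the WT value was 7.31, and the call was lost without WT 0 h replicate 1 (3.13) or 2 (3.11) or WT 48 h replicate 1 (3.48) or 2 (3.37). In FNcKO, Mx1 passed without 48 h replicate 3 (3.39, edgeR, BH-adjusted p = 0.0489) and fell to 1.78 without 48 h replicate 1.

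Mx2 rose from 1.403, 2.45 and 1.81 CPM to 5.99, 9.52 and 7.46 CPM in WT, and from 0.335, 0.577 and 0.287 CPM to 4.43, 2.62 and 7.40 CPM in FNcKO. Every 48 h library lay above every 0 h library of its genotype, and the fold changes were 4.04 and 11.6.

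Of the other 4 antiviral effectors, 2 rose in WT and 4 in FNcKO. Bst2, the membrane protein tetherin, went from 2.31, 1.94 and 5.18 CPM to 18.1, 24.5 and 19.3 CPM in WT and from 2.12, 1.499 and 1.29 CPM to 16.7, 15.5 and 18.3 CPM in FNcKO. It rose 6.61-fold and 10.1-fold. Samd9l, a restriction factor, stood at 26.0, 31.2 and 34.2 CPM and then 66.8, 39.5 and 33.3 CPM in WT, where the times overlapped (log2 0.61 ± 0.25, edgeR, BH-adjusted p = 0.0760). In FNcKO, 24.9, 28.7 and 19.5 CPM were followed by 46.3, 45.5 and 33.7 CPM, and it rose 1.71-fold. That call was lost in 7 of 22 alternatives (log2 0.60 to 1.03), among them each fit without FNcKO 0 h replicate 1 or 3, FNcKO 48 h replicate 1 or 2, or WT 0 h replicate 2. In WT it passed without 48 h replicate 3 (0.81).

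Rsad2 encodes viperin, an enzyme that makes a chain-terminating nucleotide, and Cmpk2, a nucleotide kinase, lies 12763 bases from it on chromosome 12. Rsad2 went from 0.401, 1.53 and 0.361 CPM to 13.03, 8.74 and 4.56 CPM in WT and from 0.559, 1.27 and 0.287 CPM to 16.2, 9.28 and 1.48 CPM in FNcKO. It rose 11.2-fold and 12.2-fold, with no overlap but a wide spread at 48 h in FNcKO. The log2 values were 3.48 and 3.61, which became 4.45 without WT 0 h replicate 2, and in FNcKO 4.33 without 0 h replicate 2 and 2.88 without 48 h replicate 1. Both calls were lost when both 0 h replicate 1 libraries were left out (Rsad2, edgeR, BH-adjusted p = 0.0506 and 0.0569).

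Cmpk2 stood at 5.11, 3.57 and 3.01 CPM and then 7.42, 9.42 and 7.98 CPM in WT, which did not overlap but missed the threshold (log2 1.08 ± 0.48, edgeR, BH-adjusted p = 0.0982). In FNcKO, 1.56, 4.04 and 1.29 CPM were followed by 14.5, 4.58 and 6.44 CPM, and Cmpk2 rose 3.66-fold. The log2 value of 1.87 became 2.56 without FNcKO 0 h replicate 2 and 1.25 without 48 h replicate 1, which ended the call, as did leaving out 0 h replicate 1 (1.65) or 3 (1.57).

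Isg15 is a ubiquitin-like protein, and Usp18, Herc6, Trim25 and Dtx3l are enzymes of ubiquitin or Isg15 conjugation or removal. All 5 rose in both genotypes. Trim25, which activates RIG-I, stood at 22.0, 30.9 and 27.9 CPM in WT at 0 h and 60.6, 52.4 and 39.1 CPM at 48 h, and at 25.7, 20.99 and 20.1 CPM and then 40.7, 31.4 and 43.5 CPM in FNcKO. It rose 1.88-fold and 1.73-fold, the latter call being lost without FNcKO 0 h replicate 3 (log2 0.68) or 48 h replicate 3 (0.70) against 0.79. Dtx3l went from 12.7, 14.9 and 12.04 CPM to 46.7, 36.04 and 26.4 CPM in WT and from 11.8, 12.6 and 6.74 CPM to 26.3, 24.99 and 26.7 CPM in FNcKO, a rise of 2.75-fold and 2.49-fold.

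Isg15 itself rose 6.48-fold in WT, from a mean of 1.85 to 12.1 CPM, and 4.09-fold in FNcKO, from 2.03 to 8.25 CPM. Usp18, which removes Isg15 and dampens the receptor, rose 2.19-fold and 2.62-fold from means of 7.91 and 4.34 CPM, and Herc6, the mouse ligase of Isg15, 1.59-fold and 2.45-fold from 13.9 and 10.6 CPM. The Usp18 calls were lost in 11 alternatives in WT (log2 0.78 to 1.35) and 7 in FNcKO (0.97 to 1.64), which include leaving out any 1 of the WT 0 h libraries. The WT call of Herc6 was lost in 6 (log2 0.56 to 0.88), among them the fits without any 1 WT 0 h library or without WT 48 h replicate 1 or 3.

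The ADP-ribosyltransferases Parp9 and Parp14 lie next to Dtx3l, whose product forms a complex with Parp9. Parp14 went from 18.7, 19.8 and 18.5 CPM to 70.5, 49.9 and 33.3 CPM in WT and from 7.26, 14.2 and 5.88 CPM to 45.9, 43.6 and 45.01 CPM in FNcKO. It rose 2.69-fold and 4.90-fold, and its 3 FNcKO 48 h libraries were nearly equal. Parp9 went from 11.03, 11.2 and 15.4 CPM to 45.1, 33.1 and 33.5 CPM and from 11.95, 6.69 and 5.88 CPM to 34.2, 25.3 and 36.2 CPM, a rise of 2.97-fold and 3.88-fold. Parp9 and Dtx3l overlap by 557 bases in the annotation of the files. The labels name a TruSeq RNA kit and no strand-specific step, and the strand setting of the counting is not stated, so reads from the overlap cannot be told apart.

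The remaining 4 genes were Rtp4, Ifi44, Ifi35 and Xaf1. Rtp4, a chaperone that also restricts flaviviruses, went from 1.20, 2.34 and 2.65 CPM to 27.5, 20.01 and 12.2 CPM in WT and from 0.223, 1.15 and 2.58 CPM to 12.98, 11.8 and 12.4 CPM in FNcKO. The rises were almost the same in size, 9.65-fold and 9.67-fold, and the FNcKO log2 value of 3.27 became 4.12 without 0 h replicate 3. Ifi44 rose 6.84-fold and 9.75-fold to means of 7.02 and 5.36 CPM.

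Ifi35 and Xaf1 moved less. Ifi35 stood at 5.71, 9.48 and 4.69 CPM and then 16.4, 19.2 and 13.99 CPM in WT, and rose 2.48-fold. In FNcKO it already stood at 10.5, 7.96 and 11.2 CPM at 0 h, reached 13.6, 17.7 and 15.7 CPM, and missed the threshold (log2 0.67 ± 0.27, edgeR, BH-adjusted p = 0.0904). Xaf1, a factor that promotes cell death, went from 6.21, 3.87 and 6.38 CPM to 8.65, 10.6 and 8.40 CPM in WT, without overlap, but missed the threshold (0.75 ± 0.29, edgeR, BH-adjusted p = 0.0668). In FNcKO it rose 1.86-fold, from 5.47, 3.69 and 5.59 CPM to 7.60, 9.06 and 10.8 CPM, a call that was lost in 15 of 22 alternatives (log2 0.72 to 1.20).

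Set side by side, the WT and FNcKO responses were alike in order. Of the 36 genes, 26 rose in both genotypes and 2, Ifit2 and Oas3, in neither. Oas2, Mx1 and Ifi35 passed in WT and not in FNcKO, and Ifit3, Eif2ak2, Cmpk2, Samd9l and Xaf1 in FNcKO and not in WT. Across the 36 genes the log2 fold changes had a Pearson r of 0.84 and a Spearman rho of 0.83, given as a description because genes share libraries and are not independent replicates. The response was larger in FNcKO for 23 genes and in WT for 13, with a median difference of 0.14, against -0.01 for all tested genes. At 0 h, 32 of the 36 genes lay lower in FNcKO (below), and those same libraries enter this difference.

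The test of the difference itself passed for 0 of 36 genes with edgeR, as for 0% of all tested genes in either direction, and DESeq2 also called 0. At an unadjusted p under 0.05 it gave 4 genes, Mx2, Gbp2, Gbp3 and Herc6, all with the larger rise in FNcKO, against 2.51% of all tested genes with a larger rise and 2.53% with a smaller one at that threshold. The largest differences were 1.52 ± 0.69 for Mx2 and 1.44 ± 0.67 for Gbp3 on the log2 scale, and -1.43 ± 0.81 for Oas2 in the other direction (edgeR, BH-adjusted p = 0.945 for each). A gene that passed in 1 genotype is therefore not shown to respond differently in the other.

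**Figure D4:**
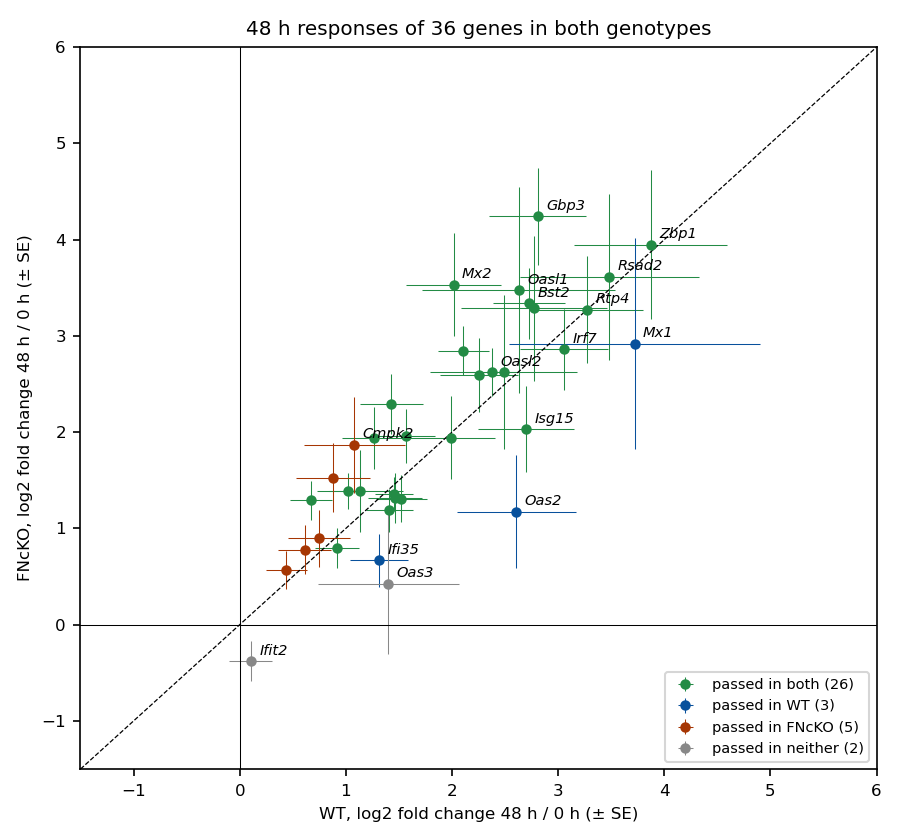
Log2 fold change from 0 h to 48 h in WT (x axis) and FNcKO (y axis) for each of the 36 genes, with SE bars, coloured by the comparisons in which the gene passed the threshold; the dashed line marks equal responses. The 26 genes that rose in both spread along the line, Oas2 lies below it and Gbp3 and Mx2 above it, and Ifit2 sits near the origin.

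Between the genotypes at 48 h, 0 of 36 genes were higher and 0 lower in FNcKO with edgeR, against 0.0412% and 0.199% of all tested genes. The median log2 difference was -0.30, with 30 of 36 genes below 0, while the median of all tested genes was 0.01 and 48% of them lay below 0. At an unadjusted p under 0.05, 5 genes (Oas2, Oas3, Ddx58, Ifih1 and Stat2) were lower and 0 higher, against 3.4% and 2.07% of all tested genes. Oas2 (log2 -2.13 ± 0.54, edgeR, BH-adjusted p = 0.227) and Oas3 (-2.15 ± 0.69, edgeR, BH-adjusted p = 0.505) had the largest differences. These 2 genes (5.56% of the 36) were those whose 3 FNcKO libraries all lay below the 3 WT libraries, a share close to the 5.25% of all tested genes. DESeq2 called 1 gene lower, Oas2 (log2 -2.15, BH-adjusted p = 0.0156).

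Some marker lists of other cells also lay lower in FNcKO at 48 h, and others lay higher. Of 8 pigment cell markers, 3 (Tyr, Tyrp1 and Mlana) were lower in FNcKO with edgeR, and their sum was 171 to 437 CPM in WT and 17.6 to 67.4 CPM in FNcKO. The general leukocyte and the macrophage and monocyte markers had median log2 differences of -0.88 and -0.89 and the 9 tested endothelial markers -0.94, with 0 called in each list. Their summed levels overlapped between the genotypes. Tested neutrophil and photoreceptor markers had medians of -1.25 and -0.35. The 3 tested cornea markers had a median of -2.41. Summed over the 5 with a row, however, cornea markers were at 363 to 984 CPM in WT and 697 to 1343 CPM in FNcKO. Lens epithelial and lens fiber markers lay the other way, at 0.47 and 0.37, as did the 1 tested plasmacytoid dendritic marker at 0.99. In these lists, too, 0 were called. The part of these cells in the lower interferon-stimulated levels was not tested.

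At 0 h, edgeR again called 0 of 36 genes higher and 0 lower, against 0.0755% and 0.0687% of all tested genes. The FNcKO levels lay mostly on the lower side, with a median log2 difference of -0.53 and 32 of 36 genes below 0, while the median of all tested genes was 0.01 and 48.7% of them lay below 0. For 10 genes (27.8%) all 3 FNcKO libraries lay below the 3 WT libraries, against 7.95% of all tested genes. These were Ifih1, Irf9, Oasl2, Eif2ak2, Mx2, Gbp2, Gbp3, Usp18, Herc6 and Parp14.

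Unadjusted p-values under 0.05 at 0 h were reached by 9 genes, all lower in FNcKO, against 5.03% of all tested genes lower and 5.98% higher. The largest of these differences were those of Mx2 (log2 -2.18 ± 0.55, edgeR, BH-adjusted p = 0.217), Ifih1 (-1.33 ± 0.32, edgeR, BH-adjusted p = 0.193) and Gbp3 (-1.26 ± 0.53, edgeR, BH-adjusted p = 0.420). DESeq2 called 1 gene lower, Ifih1 (log2 -1.34, BH-adjusted p = 0.0347). The exceptions on the higher side were Mx1, Ifi35, Isg15 and Ifit2, of which Ifi35 was at 9.88 ± 1.70 CPM (SD, n = 3) in FNcKO and 6.63 ± 2.52 CPM in WT. The comparison at 0 h uses the same libraries as both comparisons over time, so a low 0 h level and a large rise in FNcKO are not separate observations. Leukocyte and macrophage sums at 0 h (above) were 10.8 to 25.1 and 56.7 to 124 CPM in FNcKO and 16.7 to 43.2 and 72.8 to 176 CPM in WT. Pigment cell markers summed to 151 to 182 CPM in FNcKO and 213 to 295 CPM in WT at 0 h. Photoreceptor markers summed to 1042 to 3856 CPM in FNcKO and 1905 to 6079 CPM in WT. Cornea markers lay the other way, at 1773 to 2651 CPM in FNcKO and 732 to 1108 CPM in WT, and lens epithelial sums (above) were also higher in FNcKO. The part of these cells in this difference was not tested.

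**Figure D5:**
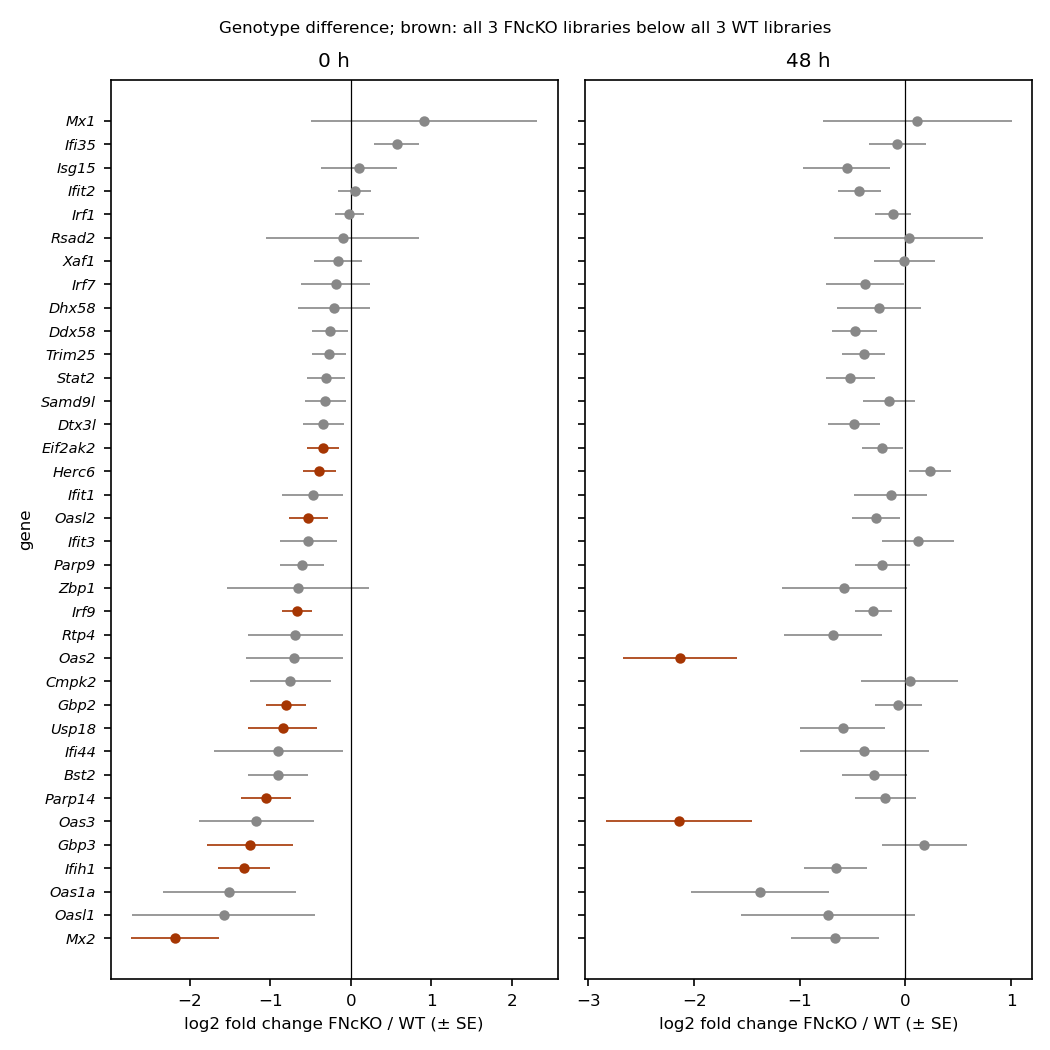
Log2 fold change FNcKO over WT at 0 h (left) and 48 h (right) for the 36 genes, with SE bars, ordered by the 0 h value; brown marks genes whose 3 FNcKO libraries all lie below the 3 WT libraries. At 0 h 32 points lie left of 0 and 10 are brown, while at 48 h 30 lie left of 0 and Oas2 and Oas3 are brown; no gene passed the adjusted threshold.

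The pathway above these genes was described from further lists. Of 21 interferon genes, including Ifnb1, Ifng, Ifnl2 and Ifnl3, 16 had 0 counts in all 12 libraries, and none passed the filter on low counts. The 21 genes together held 13 counts, 8 of them for Ifnz in FNcKO 48 h replicate 3, 2 for Ifna13, and 1 each for Ifnab, Ifne and Ifnk. A count of 0 leaves room for up to 3 counts a library, so a low level could not be detected at this depth, and RNA made before 48 h or outside the capsule was not sampled.

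All 9 receptor and Janus kinase genes were tested, and 7 rose in WT and 4 in FNcKO, against 19.1% and 14.9% of all tested genes. Il10rb, a subunit of the type III receptor, rose the most, from 13.2, 15.8 and 13.6 CPM to 46.0, 48.3 and 25.2 CPM in WT (2.80-fold) and from 12.7, 14.4 and 13.2 CPM to 36.5, 34.6 and 38.8 CPM in FNcKO (2.72-fold). The type I receptor subunit Ifnar2 rose 2.01-fold and 1.54-fold, Jak1 1.65-fold and 1.52-fold, and Jak2 1.76-fold and 1.69-fold. Ifngr2 and Tyk2 rose in WT, 1.95-fold and 1.46-fold, and in FNcKO had fold changes of 1.31 and 1.24 that missed the threshold. Ifngr1 rose by 0.59 on the log2 scale in WT and had a fold change of 1.33 in FNcKO that missed it. Ifnar1, the other type I subunit, had log2 fold changes of 0.13 ± 0.16 and 0.22 ± 0.16, and Ifnlr1, the type III subunit, 0.36 ± 0.54 and 0.84 ± 0.55, and neither passed in either genotype.

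Of 14 genes that act in sensing or in the induction of interferon, 7 rose in WT and 5 in FNcKO. Of all tested genes, 19.1% rose in WT, and 14.9% rose and 9.9% fell in FNcKO. Irf5, a factor found in myeloid cells, rose 9.45-fold and 4.22-fold, Ikbke, a kinase of IRF3 and IRF7, 4.71-fold and 3.66-fold, and Myd88, the adaptor of Toll-like receptors, 4.35-fold and 3.92-fold. Mb21d1, which encodes the DNA sensor cGAS, rose 7.41-fold in WT and missed the threshold in FNcKO (3.01-fold, edgeR, BH-adjusted p = 0.112). Of 10 negative regulators, 5 rose in WT, and 4 rose and 1, Pias1, fell (1.53-fold) in FNcKO. Socs3, an inhibitor of cytokine receptors, went from 11.8, 11.8 and 7.46 CPM to 346, 209 and 208 CPM in WT and from 8.49, 6.34 and 11.03 CPM to 165, 176 and 227 CPM in FNcKO, 24.4-fold and 22.0-fold. Socs1 rose 3.99-fold and 6.69-fold, and Nlrc5, also known as an activator of MHC class I genes, 6.16-fold and 10.9-fold.

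A list of 71 further induced genes was read in the same way, of which 69 had a row and 61 were tested. In WT 43 rose and 2, Tdrd7 and Ddx60, fell, with a median log2 fold change of 1.59. In FNcKO 38 rose and 1, Tdrd7, fell, with a median of 1.86. The shares of all tested genes were 19.1% higher and 13.5% lower in WT, and 14.9% and 9.9% in FNcKO. Ifitm1, a membrane protein that blocks viral entry, rose 22.9-fold in WT, from 18.6, 38.3 and 30.6 CPM to 1028, 449 and 525 CPM, and 52.0-fold in FNcKO, from 10.3, 9.11 and 10.6 CPM to 492, 320.4 and 749 CPM. Ifi205, Gbp10 and Slfn1 rose from 0 h libraries with 0 to 3 counts each, so no fold is given for them. Slfn1, a Schlafen protein of lymphoid and myeloid cells, reached 43.1, 10.6 and 10.6 CPM in WT and 9.40, 4.47 and 18.7 CPM in FNcKO. Ifi205 reached 12.2, 10.6 and 6.53 CPM and 4.01, 7.75 and 6.66 CPM, and Gbp10 2.00, 1.26 and 0.933 CPM and 1.90, 1.42 and 1.37 CPM.

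By position in the files' mm10 coordinates, 17 of the 36 genes lay in 7 neighbourhoods, with at most 500 kb between neighbours. On chromosome 5, Oas2, Oas3 and Oas1a lay between 120730333 and 120907525, and Oasl2 and Oasl1 between 114896934 and 114937911. On chromosome 16, Parp14, Dtx3l and Parp9 lay between 35832878 and 35972621, and Mx1 and Mx2 between 97447035 and 97560901. Ifit2, Ifit3 and Ifit1 occupied 34550694 to 34650009 on chromosome 19, Rsad2 and Cmpk2 26442743 to 26479837 on chromosome 12, and Gbp3 and Gbp2 142560052 to 142638008 on chromosome 3. Neighbours did not always move alike in WT, where the log2 fold change was 3.48 for Rsad2 and 1.08 for Cmpk2, and 2.26 for Ifit1 and 0.10 for Ifit2, while Parp14, Dtx3l and Parp9 gave 1.43, 1.46 and 1.57. These differences between neighbours were not tested.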

How the data were processed

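TruSeq RNA libraries were made from total RNA of lens capsules with attached epithelial cells, per the labels' protocols. The authors deposited whole-number read counts for 24147 genes in each of 12 libraries, with coordinates, coding length and RPKM, per the file headers. The deposited RPKM equals count over coding length and library total and was used only to compare levels between genes. Build mm10 and the tools HTSeq 0.6.1p1, TopHat2 2.1.0, edgeR 3.16.5, Trim Galore 0.4.4, bedtools 2.17, FastQC and SAMtools 1.4 are named in the submitters' processing notes, without roles. Not given in the sources used here are the gene models, how ambiguous reads were handled and whether counting used strand. In a combined deposited table, the column named for WT 0 h replicate 1 holds, for all 24147 genes, the values of FNcKO 0 h replicate 1, so the WT library's own file was used.

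The counts went into edgeR 4.0.16 (R 4.3.3): filterByExpr (14560 genes), TMM scaling, and a robust quasi-likelihood fit with 4 group means over 12 libraries, tested in 5 comparisons with Benjamini-Hochberg adjustment and a threshold of 0.05. The same steps were tested on simulated counts. The SE beside a log2 value is its size divided by the square root of F, an approximation. DESeq2 1.42.0 was an alternative. The design text calls the replicates biological, but whether each is 1 animal or a pool is not stated, and p-values measure the spread between these libraries. The members, the pathway and marker lists and the naming rule were chosen with earlier results of these data known. Every library's value is given for the 2 most abundant members of each role, members that passed in 1 genotype only, and the 3 largest changes in each time comparison; pathway genes are the 3 largest called changes a list, with all receptors and ligands with a count. Values for Mx2 were added after they were seen. One further gene of the induced-gene list is not reported here. Figures used matplotlib 3.10.9.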

Additional observations from a re-analysis of the deposited data

How the results depend on the processing

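Across 22 alternative settings (other scaling, filters, spread estimate, replicate block, only the groups compared, each library left out, the combined table's column, both 0 h replicate 1 libraries left out, and DESeq2), 1579 gene values gave 1460 with the same direction and the same side of the threshold, 101 lost calls, 18 gained calls and 0 reversals. With each library left out in turn, the number of genes that rose ranged from 24 to 30 in both genotypes. Over the 10 other settings it ranged from 25 to 33 in WT and from 23 to 33 in FNcKO. No alternative called a gene lower over time. Between genotypes the edgeR alternatives called 0 genes, and DESeq2 called 1 lower at 48 h (Oas2) and 1 lower at 0 h (Ifih1); the cause was not tested. No pairing of libraries by replicate number is stated. Deviations of same-numbered libraries correlated from -0.50 to 0.32 and those of different-numbered libraries from -0.29 to 0.50. With 3 libraries a group, these values cannot exclude a pairing. With the replicate block, 28 genes rose in WT and 29 in FNcKO. Total-count scaling gave 33 and 33. The combined table's column and the paired omission of the 0 h replicate 1 libraries were set out with the mismatch already known, and gave 30 and 25 genes in WT and 25 and 23 in FNcKO. The first of these settings entered the counts of FNcKO 0 h replicate 1 as WT 0 h replicate 1 and left that library out of the FNcKO 0 h group. The log2 value of Mx1, which had 4 counts in WT at 0 h, ranged from 3.11 to 7.31 in WT. The filter on low counts left all 36 genes in every comparison of the reported fit. Of the 22 alternatives, Mx1 had a value in 20 for each time comparison, and Oasl1 in 21 for FNcKO.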
